A study of Homo sapiens with 12 samples.

Results

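The miR-148 and miR-152 family comprised 4 of the 2652 mature miRNA names counted in every library: hsa-miR-148a-3p, hsa-miR-148a-5p, hsa-miR-148b-3p and hsa-miR-152-3p. They were selected by name. All 4 were detected above 10 CPM, the read count scaled to the total of its library, in each of the 12 libraries. The libraries were SLAMseq small RNA libraries from Huh7, a human hepatocellular carcinoma cell line, and came from 4 independent experiments that each contributed 1 library per condition. In *Control* the cells received DMSO without 4-thiouridine (4SU), in *DMSO* they received DMSO with 500 μM 4SU, and in *PlaB* they received the SF3B1 inhibitor pladienolide B (PlaB) with 500 μM 4SU, in each case for 4 h. The sample labels give the PlaB concentration as 500 μM. The study's methods give 1 μM as the default, and its results state 1 μM for the experiments that followed its dose series. The difference between the labels and the study is unexplained. All RNA was alkylated with iodoacetamide, including that of *Control*, so that incorporated 4SU was read as a T>C conversion. The libraries held 1522210 to 3880241 miRNA reads. Reads of 3 sequencing runs had been combined for *DMSO* replicates 1 and 2, from a first library, a new library and a re-amplified library. Over all 12 libraries miR-122-5p, the characteristic miRNA of hepatocytes, averaged 79345 CPM.

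miRNA hairpins are cut from a primary transcript by the Microprocessor and then by Dicer, which leaves a duplex of a 5p and a 3p strand. The strand retained by Argonaute, the guide, is usually stable, whereas the passenger strand is degraded. In this family the 3p strand is the usual guide. It directs repression of messages that carry matches to its seed, bases 2 to 8, in their 3′UTRs. miR-148a is abundant in liver, where it is known for repression of the low density lipoprotein receptor and the cholesterol exporter ABCA1, and the family is also known for repression of the DNA methyltransferase DNMT1. A T>C conversion marks a molecule made while 4SU was present, so the read count describes all molecules of a miRNA and the conversion rate describes the newly made ones.

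The mature sequences (RefSeq, GRCh38) are given first because the 3 guide strands shared a seed, shown in capitals, and differed at few other bases.
miR-148a-3p: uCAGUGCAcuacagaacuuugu
miR-148b-3p: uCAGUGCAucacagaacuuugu
miR-152-3p: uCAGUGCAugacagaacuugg
Among the RefSeq human mature miRNA sequences used, these 3 names were the only carriers of this seed. That set had no entry for miR-148a-5p, so it is incomplete and the sequence of this strand is not given. The 3 guide strands are repeated here with the positions that differ among them in capitals, which are the bases by which their reads are told apart.
miR-148a-3p: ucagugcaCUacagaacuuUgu
miR-148b-3p: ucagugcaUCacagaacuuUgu
miR-152-3p: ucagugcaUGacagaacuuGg
Counted from the 5′ end, miR-148b-3p differed from miR-148a-3p by C9U and U10C, with 20 of 22 bases identical. miR-152-3p differed from miR-148a-3p by C9U, U10G and U20G over 21 bases, and from miR-148b-3p by C10G and U20G. Both differences between miR-148a-3p and miR-148b-3p are between C and U, the exchange by which 4SU is detected. A miR-148a-3p read with the conversion U10C therefore has the same sequence as a miR-148b-3p read with the conversion U9C. Reads mapping to several places made up 76 of 365641 for miR-148a-3p (0.0208%), 6 of 56191 for miR-148b-3p (0.0107%) and 12 of 2504 for miR-152-3p (0.479%), and none for miR-148a-5p. These shares are of all reads and do not give the number of reads with U10C or U9C. For miR-148a-3p, reads mapping to several places numbered 32 in *Control* and 23 in *DMSO*, whereas its conversions numbered 218 and 2228. How far reads with U10C or U9C move the rates was not tested.
The opposite strands of 2 of these hairpins, again with bases 2 to 8 in capitals, have seeds unlike that of the guides.
miR-148b-5p: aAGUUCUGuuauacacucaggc
miR-152-5p: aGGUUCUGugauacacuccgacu

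All 3 hairpins lie within introns of longer transcripts on the same strand (GRCh38, GENCODE v44). *MIR148A* is at chr7:25949919-25949986 on the minus strand, in an intron of the lncRNA gene ENSG00000270933 and 868 bases from its annotated start. *MIR148B* is at chr12:54337216-54337314 on the plus strand, where 17 transcripts of *COPZ1* and 1 transcript of the lncRNA gene ENSG00000258344 span it. *MIR152* is at chr17:48037161-48037247 on the minus strand, spanned by 3 transcripts of *COPZ2* and 783 bases from the start of that gene. No annotated exon of these host genes overlapped a hairpin. *COPZ1* and *COPZ2* encode related zeta subunits of the coatomer of COPI vesicles. The distance from the annotated host start was 36014 bases for *MIR148B* in *COPZ1*, far longer than for the other two.

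Abundance within the family was very uneven, and the order of the 4 strands was the same in every library. Together they made up 1.33% to 1.95% of the miRNA reads of a library. miR-148a-3p provided 83.5% to 87.3% of the family's reads and ranked 11 to 16 among all names. miR-148b-3p ranked 47 to 55, miR-148a-5p 106 to 158 and miR-152-3p 171 to 199. The ranges of neighbouring strands in this order did not overlap over the 12 libraries: the lowest miR-148a-3p value was 11120 CPM and the highest miR-148b-3p value 2469 CPM, the lowest miR-148b-3p value was 1682 CPM and the highest miR-148a-5p value 407 CPM, and the lowest miR-148a-5p value was 146 CPM against a highest miR-152-3p value of 118 CPM. Because different sequences ligate and amplify with different efficiency, these levels describe the libraries and not molecules per cell.

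Reads of the 3 guide strands differed between the conditions by less than the spread between experiments. miR-148a-3p gave 14854, 16707, 14539 and 11120 CPM in *Control* replicates 1 to 4, 12714, 13284, 15779 and 11776 CPM in *DMSO*, and 16341, 15131, 12647 and 13046 CPM in *PlaB*. All 3 ranges overlapped. The log2 fold change in PlaB against DMSO was 0.083 with a 95% interval of −0.20 to 0.37 (edgeR quasi-likelihood test, adjusted p = 0.992). miR-148b-3p gave 2219, 2354, 2030 and 1682 CPM in *Control*, 2148, 2274, 2469 and 1721 CPM in *DMSO*, and 2116, 2247, 2259 and 1939 CPM in *PlaB*. Its interval in PlaB against DMSO was −0.29 to 0.26. miR-152-3p, the scarcest guide, gave 94.1, 78.5, 115 and 96.7 CPM in *Control*, 96.9, 71.1, 118 and 94.99 CPM in *DMSO*, and 101, 111, 83.5 and 92.1 CPM in *PlaB*, with an interval of −0.36 to 0.41. None of the 4 strands was called in this comparison, in which 2 of 301 miRNAs above 10 CPM were called in either direction (0.664%). The 2, chosen after their values were seen, were miR-92b-3p and miR-942-3p, both lower. With the experiment as a block 7 were called, and none was of this family.

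**Figure D1:**
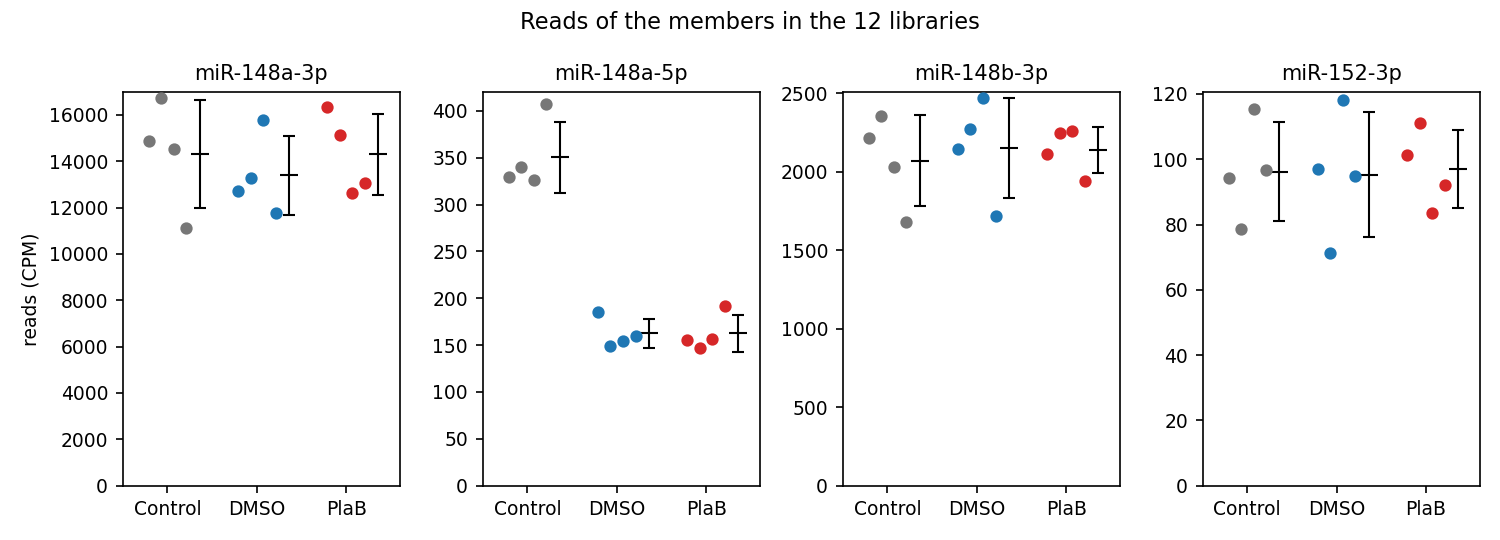
Reads in CPM (vertical axes, from 0, a separate scale for each strand) of the 4 strands in the 4 *Control*, 4 *DMSO* and 4 *PlaB* libraries, with replicates 1 to 4 from left to right and the mean ± SD in black. The miR-148a-5p values of *DMSO* and *PlaB* all lie below the lowest *Control* value of 327 CPM, whereas the conditions overlap for the 3 guide strands.

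miR-148a-5p, the passenger strand of the miR-148a hairpin, was the exception. It gave 329, 340, 327 and 407 CPM in *Control*, 186, 150, 155 and 160 CPM in *DMSO*, and 156, 146, 157 and 192 CPM in *PlaB*. Every library with 4SU was below every library without it. The *Control* mean of 351 ± 38.0 CPM compared with 162 ± 15.98 CPM for *DMSO* and 163 ± 19.8 CPM for *PlaB* (SD, n = 4). The log2 fold change was −1.10 in DMSO against Control (SE 0.136, edgeR adjusted p = 5.89e-05) and −1.10 in PlaB against Control (SE 0.136, edgeR adjusted p = 5.93e-05). Of 301 miRNAs, 15 were called lower in DMSO than in Control (4.98%) and 19 lower in PlaB than in Control (6.31%). In 23 (7.64%) all *DMSO* values were below all *Control* values. Between the 2 conditions with 4SU the log2 fold change of miR-148a-5p was −0.0049, with a 95% interval of −0.29 to 0.29. With the experiment as a block the number of miRNAs called between DMSO and Control, in either direction, rose from 18 to 45, and miR-148a-5p was called in both. *Control* and *DMSO* differ in the labels by 4SU alone, and the *DMSO* group holds both libraries with combined runs. Without these 2 libraries miR-148a-5p was still called lower.

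The 5p strand was also lower when it was set against the 3p strand of the same library, where depth cancels. It made up 2.17%, 1.99%, 2.20% and 3.53% of the reads of both strands in *Control*, 1.44%, 1.11%, 0.971% and 1.34% in *DMSO*, and 0.944%, 0.959%, 1.23% and 1.45% in *PlaB*. On the log2 scale the 5p over 3p ratio differed from Control by −1.02 in DMSO and by −1.12 in PlaB, and was lower in all 4 experiments each. The two-sided exact permutation p was 0.0286 for both, the smallest that 4 against 4 libraries allow, and 0.129 after Benjamini-Hochberg adjustment over the 9 ratio comparisons made. DMSO and PlaB differed by −0.096 (exact permutation p = 0.629).

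The opposite strand of the miR-148b hairpin did not show a decrease of this size. The *Control* mean of miR-148b-5p was 39.9 ± 9.85 CPM, that of *DMSO* 35.8 ± 13.3 CPM and that of *PlaB* 34.1 ± 9.48 CPM (SD, n = 4). Its log2 fold change in DMSO against Control was −0.15 with a 95% interval of −0.77 to 0.48. The log2 ratio of miR-148b-5p over miR-148b-3p differed by −0.24 between DMSO and Control (exact permutation p = 0.314, adjusted p = 0.404). Whether the 2 hairpins differ was not tested. miR-152-5p reached at most 2.40 CPM and was not tested.

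**Figure D2:**
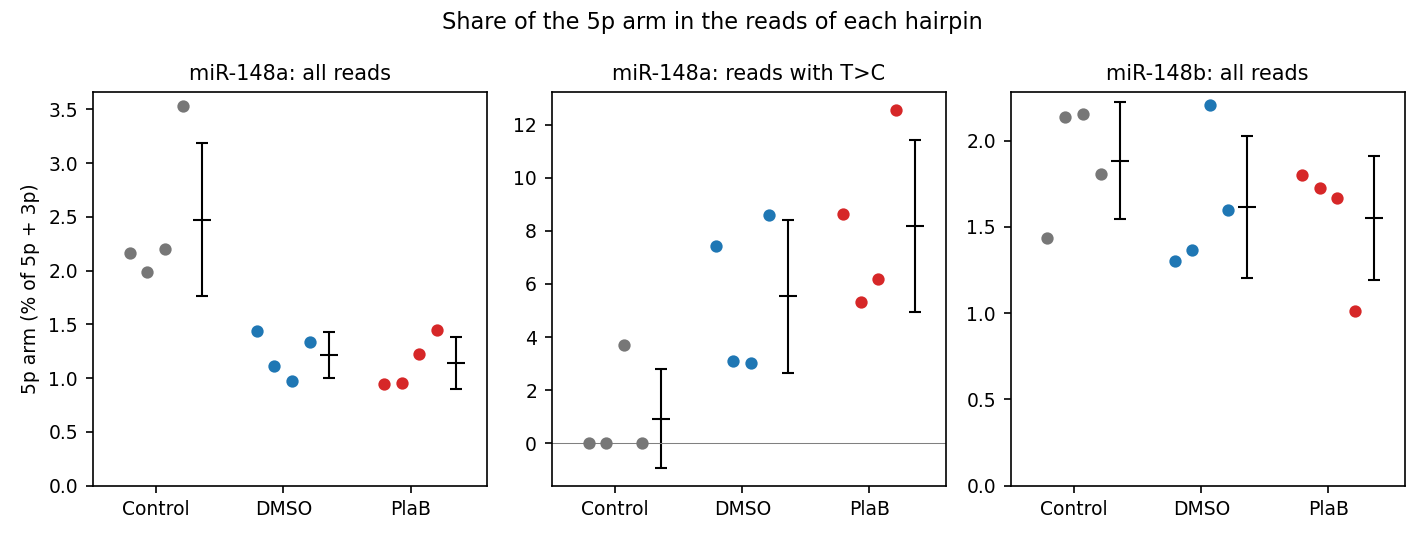
Percentage of the 5p strand among the reads of both strands of a hairpin (vertical axes) in each library, with the mean ± SD in black, for all miR-148a reads, for miR-148a reads with a T>C conversion and for all miR-148b reads. The miR-148a 5p share of all reads averaged 2.47% in *Control* and 1.22% in *DMSO*, while its share of converted reads averaged 5.53% in *DMSO* and 8.18% in *PlaB*.

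Both strands of the miR-148a hairpin also differed in their T>C conversion rate, the percentage of covered T positions read as C. The reference sequences hold 7 T positions for miR-148a-3p and miR-148b-3p and 5 for miR-148a-5p and miR-152-3p, and a read covered on average at least 6.96, 6.97, 4.78 and 4.97 of them in any library, so nearly complete molecules were measured. Without 4SU, miR-148a-3p had rates of 0.0232%, 0.0230%, 0.0283% and 0.0335%. With 4SU and DMSO they were 0.169%, 0.259%, 0.255% and 0.181%. Every *DMSO* library exceeded every *Control* library, with a log2 fold change of 3.00 (SE 0.257, edgeR adjusted p = 1.18e-29). Each of its 218 converted *Control* reads held a single conversion, whereas the 2094 converted reads of *DMSO* held 2228 conversions.

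miR-148a-5p was labelled more strongly. Its *DMSO* rates were 1.37%, 0.973%, 1.10% and 1.70%, and each exceeded the miR-148a-3p rate of the same library, by 3.76 to 9.38 fold. Its rate ranked 31 among the 301 miRNAs, where miR-148a-3p ranked 130, miR-148b-3p 201 and miR-152-3p 206. Only 2 conversions were seen in 14158 covered T positions in *Control*, both in replicate 3, and 114 in 8938 in *DMSO*. The ratio of the pooled rates was 90.3, with an exact 95% interval of 24.4 to 755 that covers counting error only, and the fitted log2 fold change was 6.01 (SE 0.881, edgeR adjusted p = 5.95e-11). Without *Control* replicate 3 no *Control* conversion remained, and the fitted value, then 7.91, is no bound. An average of 6.12% ± 1.54 of the miR-148a-5p reads carried a conversion in *DMSO*, against 1.42% ± 0.307 for miR-148a-3p (SD, n = 4). Rates of different miRNAs depend on their U content and on how fast old molecules are lost, so they rank labelling and not synthesis.

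miR-148b-3p, which differs from miR-148a-3p at 2 bases and has as many T positions, had a lower measured rate in *DMSO*. Its rates were 0.0723%, 0.123%, 0.0888% and 0.0720% in *DMSO*, below those of miR-148a-3p in all 4 libraries. In *Control* they were 0%, 0.0305%, 0.00390% and 0.0607%, from 0, 12, 1 and 17 conversions. These *Control* libraries differed beyond counting error, since the 95% Wilson interval of replicate 4, 0.0379% to 0.0972%, lies above that of replicate 3, 0.000689% to 0.0221%. The increase in DMSO over Control had a log2 fold change of 1.86 (SE 0.573, edgeR adjusted p = 0.00284), with every *DMSO* value above every *Control* value. DESeq2 gave an adjusted p of 0.0585, and the range over 20 alternatives was 0.000474 to 0.0585. When any single library was left out the log2 fold change was 1.47 to 2.76, with the highest value without *Control* replicate 4. The counts do not separate miR-148b-3p reads with U9C from miR-148a-3p reads with U10C, which have the same sequence. Over the group miR-148a-3p had 2228 conversions in *DMSO* and 218 in *Control*, against 154 and 30 for miR-148b-3p. How much of the miR-148b-3p rate came from miR-148a-3p reads was not tested.

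miR-152-3p was too scarce for a rate to be resolved. It had 1 conversion in 3918 covered T positions in *Control*, 5 in 5156 in *DMSO* and 0 in 3403 in *PlaB*. The pooled *DMSO* rate was 0.0970% with a 95% Wilson interval of 0.0414% to 0.227%, which includes the pooled rate of miR-148b-3p, 0.0914%. The 0 conversions in *PlaB* allow a rate of up to 0.0882%, for counting error only. Labelling above *Control* was not detectable at this depth (edgeR adjusted p = 0.402).

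Thus 3 of the 4 strands, all but miR-152-3p, were called higher in DMSO than in Control, where 174 of 271 miRNAs with a conversion were so called (64.2%). The opposite strand miR-148b-5p had 12 conversions in 2667 covered T positions in *DMSO*, 8 of them in replicate 1, and 0 in 2324 in *Control*. With *Control* set at 3 conversions over the group, the pooled miR-148b-5p rate was 3.49-fold higher in *DMSO*. This value is no lower bound, since it leaves out the counting error of the 12 conversions. Its call (edgeR adjusted p = 0.0233) was lost with the experiment as a block (adjusted p = 0.0934), by DESeq2 (0.212), without *DMSO* replicate 1 (0.109), *Control* replicate 2 (0.0597) or *Control* replicate 3 (0.0528), and without *DMSO* replicates 1 and 2 (0.150).

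**Figure D3:**
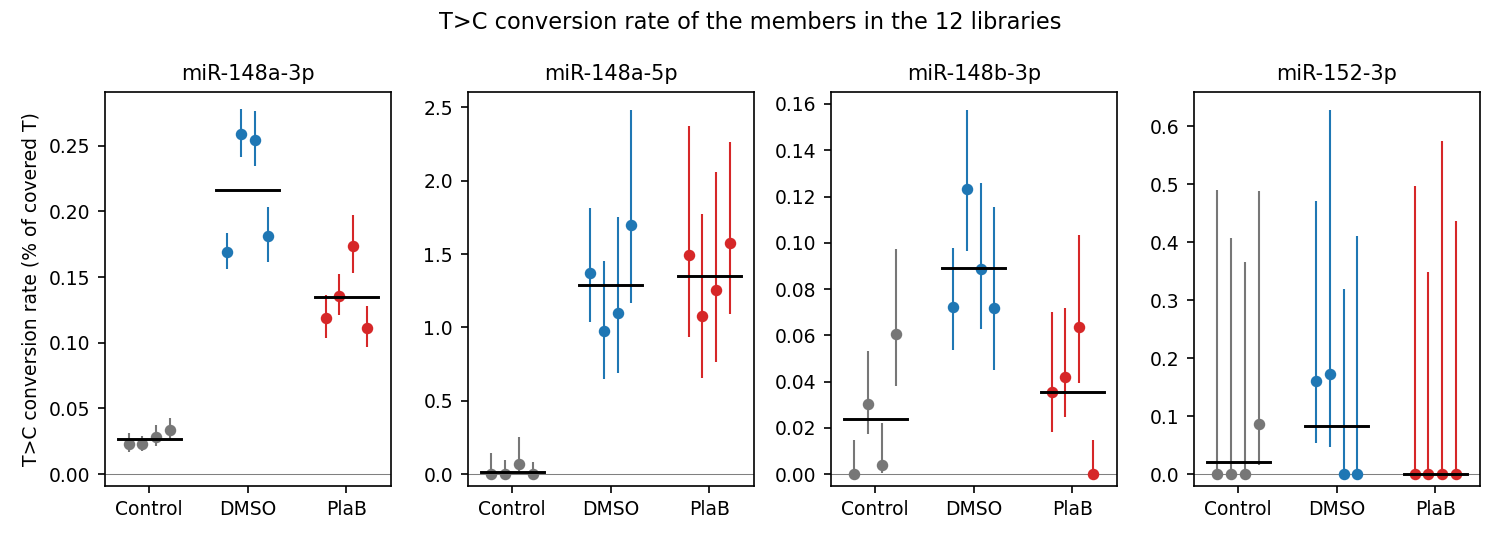
T>C conversion rate as a percentage of covered T positions (vertical axes, a separate scale for each strand) in each library, replicates 1 to 4 from left to right, with 95% Wilson intervals for counting error as thin lines and the group mean as a black bar. miR-148a-5p reaches 0.973% to 1.70% in *DMSO* and stays at that level in *PlaB*, while miR-148a-3p and miR-148b-3p have lower means in *PlaB* and miR-152-3p has intervals too wide to separate the conditions.

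PlaB libraries had a lower rate of the abundant guide miR-148a-3p than DMSO libraries. Their rates were 0.119%, 0.136%, 0.174% and 0.111%, each below the *DMSO* rate of its own experiment, although replicate 3 exceeded *DMSO* replicate 1. The mean was 0.135% ± 0.0279 in *PlaB* and 0.216% ± 0.0473 in *DMSO* (SD, n = 4). The log2 fold change was −0.68 with a 95% interval of −1.14 to −0.22 (edgeR adjusted p = 0.0178). Over all miRNAs tested the median was −1.31, and 77 of 271 were called lower in PlaB (28.4%). The call for miR-148a-3p was lost without *DMSO* replicate 2 (adjusted p = 0.0950), *DMSO* replicate 3 (0.0777), *PlaB* replicate 1 (0.0536) or *PlaB* replicate 4 (0.0874), and without *DMSO* replicates 1 and 2 together (0.0910), with a fold change of −0.58 to −0.83 over 20 alternatives whose adjusted p was 0.00178 to 0.0950.

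In miR-148b-3p the difference was larger in size but rested on 37 conversions. Converted reads that could equally be miR-148a-3p were not separated in any of the miR-148b-3p comparisons with PlaB, and their share was not tested. The *PlaB* rates were 0.0356%, 0.0419%, 0.0637% and 0%, and all 4 were below the lowest *DMSO* rate, as was the case for 87 of the 271 miRNAs (32.1%). The log2 fold change was −1.33 with a 95% interval of −2.43 to −0.23, and it did not pass the threshold (edgeR adjusted p = 0.0558, 0.0401 to 0.317 over 20 alternatives). *PlaB* replicate 4 held 0 conversions in 25830 covered T positions, and without it the log2 fold change was −0.92. Against Control, miR-148b-3p in PlaB differed by 0.53 with an interval of −0.66 to 1.72 (edgeR adjusted p = 0.530). This value also moved with single libraries, to 0.094 without *PlaB* replicate 3, 0.14 without *Control* replicate 1, 0.20 without *Control* replicate 3, 0.94 without *PlaB* replicate 4 and 1.43 without *Control* replicate 4, and none of these passed the threshold. miR-148a-3p remained well above Control in PlaB, with a log2 fold change of 2.32 (edgeR adjusted p = 1.58e-18). In this comparison 109 of 271 miRNAs were called higher (40.2%), among them miR-148a-3p and miR-148a-5p.

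miR-148a-5p showed no lower rate in PlaB. Its rates were 1.49%, 1.08%, 1.25% and 1.57%, a mean of 1.35% ± 0.226 against 1.29% ± 0.322 in *DMSO* (SD, n = 4), and the ranges overlapped almost fully. The log2 fold change was 0.073 with a 95% interval of −1.12 to 1.27 (edgeR adjusted p = 0.962), so a decrease as large as that of miR-148a-3p lies within the interval. From pooled conversions, 75 in *PlaB* and 114 in *DMSO*, the ratio of the rates was 1.07 with an exact 95% interval of 0.787 to 1.44. That of miR-148a-3p, from 926 and 2228 conversions, was 0.616 with an interval of 0.570 to 0.665, and that of miR-148b-3p was 0.388 with an interval of 0.263 to 0.558. These intervals cover counting error only. Without *PlaB* replicate 4 the ratio of miR-148b-3p was 0.515 with an interval of 0.350 to 0.742, which overlaps that of miR-148a-3p, 0.597 to 0.707 without the same library. This alternative was chosen after seeing the data.

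**Figure D4:**
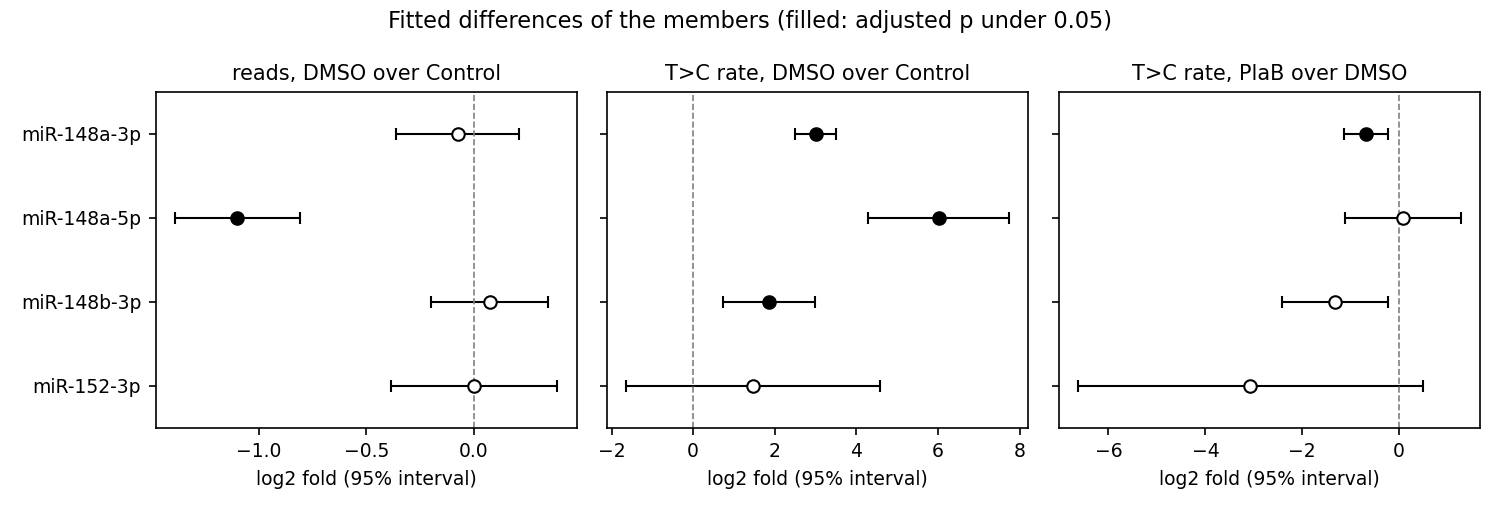
Log2 fold changes with 95% intervals from edgeR (horizontal axes) for the 4 strands, for reads in DMSO over Control, T>C rate in DMSO over Control and T>C rate in PlaB over DMSO, with filled symbols where the adjusted p was under 0.05. Only miR-148a-5p, at −1.10, is called for reads, and only miR-148a-3p, at −0.68, is called in PlaB over DMSO.

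The difference between the strands in their response to PlaB was tested within libraries. The log2 ratio of the miR-148a-5p rate over the miR-148a-3p rate was 0.77 higher in PlaB than in DMSO and was higher in all 4 experiments. The two-sided exact permutation test gave p = 0.143 (adjusted p = 0.257), and sign flips over the 4 experiments, which cannot go below it, gave an exact p of 0.125. Against miR-148b-3p the difference was 2.14 (exact permutation p = 0.0571, adjusted p = 0.129), and it was 0.914 without *PlaB* replicate 4. The ratio of miR-148b-3p over miR-148a-3p differed by −1.37 between PlaB and DMSO (exact permutation p = 0.0571, adjusted p = 0.129), and −0.30 without that library. None of these 3 differences passed the threshold.

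After subtraction of the mean *Control* rate, the PlaB/DMSO ratio of rates was 0.571 for miR-148a-3p, 1.05 for miR-148a-5p and 0.177 for miR-148b-3p. The first ratio stayed between 0.502 and 0.617 and the second between 0.970 and 1.18 when any single library was left out. The ratio of miR-148b-3p was decided by single libraries, since it was 0.0317 without *PlaB* replicate 3, 0.0629 without *Control* replicate 1, 0.0836 without *Control* replicate 3, 0.307 without *Control* replicate 4 and 0.357 without *PlaB* replicate 4.

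The other minor strands were compared with miR-148a-5p. In 59 hairpins both strands exceeded 10 CPM. The minor strand was the one with the lower mean CPM over all 12 libraries, those with 4SU included. A strand with fewer reads under 4SU can therefore count as minor because of that decrease. In miR-32 the means were 252 CPM for 3p and 261 CPM for 5p, with log2 fold changes of −0.62 and 0.47 in DMSO against Control. How far this definition shapes the counts was not tested. Reads of 10 of the 59 minor strands and of 0 of the 59 major strands were called lower in DMSO than in Control, with median log2 fold changes of −0.14 and 0.068. In this fit 0 strands of either kind were called higher. At an unadjusted p under 0.05 edgeR had 20 minor and 1 major strands lower, and 5 minor and 3 major strands higher. DESeq2 called 15 minor and 0 major strands lower, and 1 of each kind higher. With the experiment as a block 20 minor and 0 major strands were called lower, and 2 minor and 5 major strands higher. Without *DMSO* replicates 1 and 2 there were 5 minor and 0 major strands lower, and 0 of either kind higher. The 10 were miR-148a-5p, miR-191-3p, miR-194-3p, miR-21-3p, miR-221-5p, miR-27a-5p, miR-27b-5p, miR-32-3p, miR-374b-3p and miR-671-3p, and 9 of them, all but miR-671-3p, were also called higher in T>C rate, as were 38 of 56 minor strands and 46 of 56 major strands tested. Their *DMSO* rates ranged from 0.147% in miR-374b-3p to 5.65% in miR-27a-5p, around a median of 0.393% over the minor strands. The decrease of miR-148a-5p was the sixth in size, with miR-27a-5p the largest at −2.89. The minor strand had the higher *DMSO* rate in 36 of 58 hairpins with a rate for both, and miR-148a-5p ranked 12 by rate. In PlaB against DMSO, edgeR called 11 of 56 minor strands and 26 of 56 major strands lower in rate, with medians of −1.25 and −1.34. Minor strands have fewer reads, and the role of depth in these counts was not tested.

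**Figure D5:**
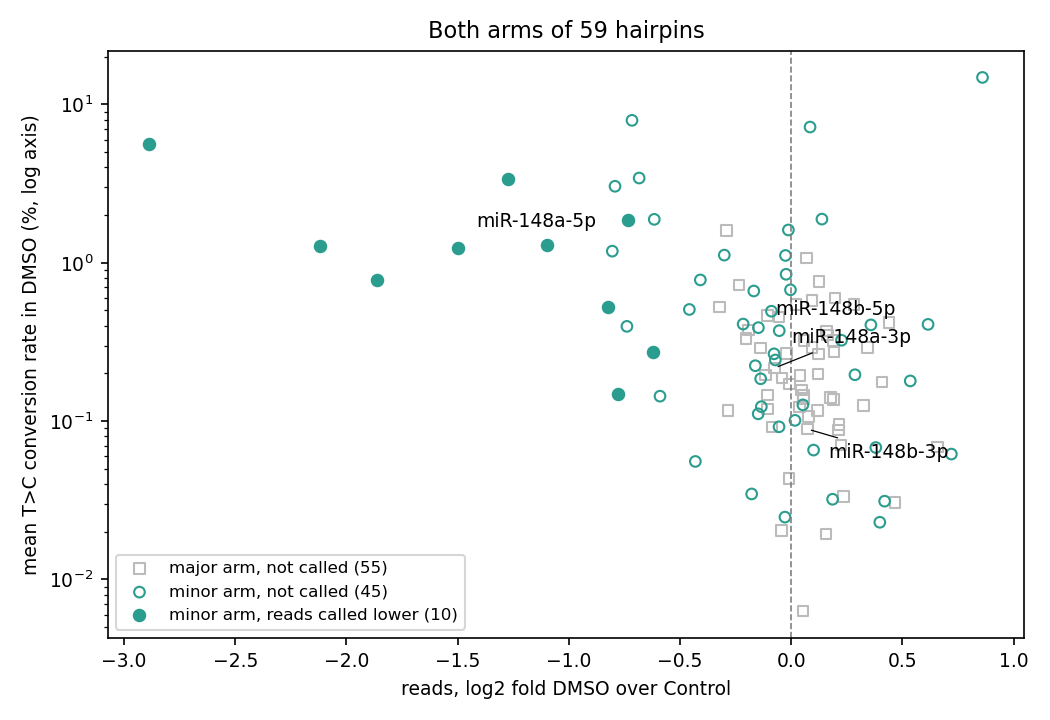
Log2 fold change of reads in DMSO over Control (horizontal axis) against the mean T>C conversion rate in *DMSO* (vertical axis, log scale) for the minor strands (circles) and major strands (squares) of 59 hairpins, with filled circles where reads were called lower. miR-148a-5p is among the 10 filled circles at −1.10 and 1.29%, while miR-148b-5p, miR-148a-3p and miR-148b-3p lie near 0, and 4 minor and 4 major strands without a rate above 0 are not drawn.

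The miRNAs whose log2 CPM followed the members most closely over the 12 libraries also differed between the strands of miR-148a. Among 157 miRNAs above 100 CPM, those nearest to miR-148a-3p were miR-30c-5p (Pearson r = 0.867), miR-140-3p (0.770) and miR-222-3p (0.748), and those nearest to miR-148b-3p were miR-126-3p (0.861), miR-28-5p (0.808) and miR-30c-5p (0.788). Those nearest to miR-148a-5p were miR-4521 (0.948), miR-374b-3p (0.877) and miR-21-3p (0.873). These correlations are descriptions over libraries that share their 3 conditions and their normalization.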

How the data were processed

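Small RNA was measured in 12 Huh7 libraries, grouped by the sample labels into *Control*, *DMSO* and *PlaB* (4 each). The authors trimmed reads with Trim Galore, mapped them to GRCh38 with SLAM-DUNK as run by nf-core SLAMseq 1.0.0 without a mapping quality threshold, and counted them on mature miRNA coordinates of miRBase (22). The deposited tables hold counts of reads, converted reads, T>C conversions and covered T positions, and in them the authors also give CPM and the T>C conversion rate as a fraction. CPM was checked to be reads scaled to the library total, and the rate to be conversions over covered T. miRNAs over 10 CPM in every library were tested (301) with edgeR 4.0.16 (R 4.3.3) using TMM factors, the quasi-likelihood test, all 12 libraries and no block. Conversions were tested with the log of covered T as offset (271 with at least 1 conversion). The threshold was a Benjamini-Hochberg adjusted p of 0.05 over all miRNAs tested. The fits were tested on simulated data. Ratios within libraries were compared by exact permutation, with 0.5 added to conversions before a log2 ratio. Intervals and limits (3 conversions for a count of 0) cover counting error only.

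Named miRNAs were the members, the other strands of their hairpins, the 3 miRNAs over 100 CPM most correlated with each of 3 members, and strands of hairpins with both over 10 CPM as counts. Other named miRNAs were chosen after their values were seen. The members, lists and tests were chosen with earlier results of these data known. Replicate numbers were taken to pair the libraries, since the methods describe 4 experiments of 3 conditions. Deviations of log2 CPM from the condition mean correlated between same-numbered libraries over 158 miRNAs above 100 CPM (medians 0.557, 0.571 and 0.568 in the 3 comparisons, lowest 0.208). Between others the medians were −0.171, −0.225 and −0.218. Subtracting the mean makes these negative where same-numbered libraries correlate, so they add no separate evidence of pairing. Over the 301 miRNAs 1 of 4 *DMSO* and *Control* pairs did not correlate (−0.024), and same-numbered T>C rates had medians of −0.0096, −0.016 and 0.056 (−0.017, 0.097 and 0.047 over 152 miRNAs above 100 CPM). Alternatives were DESeq2 1.42.0, DESeq2-type (RLE) factors, other filters, the 143 miRNAs of the study's Initial miRNA Dataset, 8 libraries alone, converted reads, the block and left-out libraries. Loci and hosts came from GENCODE 44 and sequences from RefSeq.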

Additional observations from a re-analysis of the deposited data

Results flagged for a closer look

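In groups of 4 libraries, a value was singled out where its gap to the nearest of the others was a large part of the group's range (Dixon's test at the 95% level). This applied to 8 values of 35 groups examined. The level of 1 in 20 holds for independent groups of normally distributed values and does not apply here. Some groups share values, and a rate with conversions in 1 library alone is always flagged. In *Control* replicate 4, miR-148a-5p reached 407 CPM, the highest of 4, and the log2 ratio of its reads over those of miR-148a-3p was −4.77. In that library miR-148a-3p had its lowest level of all 12, 11120 CPM. The lower reads of miR-148a-5p with 4SU were called with and without this library.

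In *PlaB* replicate 4, the log2 ratio of the miR-148b-3p rate over the miR-148a-3p rate was −5.85, because miR-148b-3p had no conversion there. In the same library its opposite strand miR-148b-5p had the lowest *PlaB* level, 19.9 CPM, and the highest *PlaB* rate, 1.504%, from 4 conversions in 266 covered T positions. The differences of miR-148b-3p in PlaB are also given without this library in the report.

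The remaining 3 values rested on few reads or conversions. miR-148a-5p had a rate of 0.0699% in *Control* replicate 3, from 2 conversions, with 0 in the other *Control* libraries. miR-152-3p had a rate of 0.0866% in *Control* replicate 4, from 1 conversion. miR-148b-5p reached 55.7 CPM in *DMSO* replicate 3.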

How the results depend on the processing

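For the family and its other strands, 555 of 570 alternative values of the 6 comparisons kept their side of the threshold. Of the others 12 lost a call, 3 gained one and 0 reversed a call. Most alternatives belong to comparisons not called at first, which count as kept even when the sign changed. For the miR-152-3p rate in DMSO against Control, the log2 fold change went from 1.47 to −1.50 without *DMSO* replicates 1 and 2. The cause of these changes was not tested. The replicate block changed the call of miR-148b-5p in DMSO against Control and no other call of the family. Counts over all miRNAs moved more, and the filters also changed the number tested. In reads, DMSO against Control, 18 of 301 were called. Other filters gave 32 of 537 (edgeR's own), 8 of 158 (above 100 CPM) and 6 of 143 (Initial miRNA Dataset). Over the same 301, 45 were called with the replicate block, 9 without *DMSO* replicates 1 and 2, and 11 to 19 without any single library. In reads, PlaB against DMSO, 2 of 301 were called, against 1 of 158 above 100 CPM and 1 of 143 in the Initial miRNA Dataset. Over the 301, 4 were called by DESeq2, 1 with the 8 libraries alone, 7 with the replicate block and 0 without *DMSO* replicates 1 and 2. Without any single library 0 to 2 were called (edgeR). At an unadjusted edgeR p under 0.05 there were 9 without *DMSO* replicates 1 and 2 and 10 to 21 without any single library. In reads, PlaB against Control, 20 of 301 were called. Other filters gave 36 of 537 (edgeR's own), 6 of 158 (above 100 CPM) and 5 of 143 (Initial miRNA Dataset). In conversions, 175 of 271 were called in DMSO against Control, against 86 of 88 with edgeR's own filter. In PlaB against DMSO 78 of 271 were called, against 48 of 254 without *DMSO* replicates 1 and 2. Stricter filters tested fewer miRNAs. The background-corrected PlaB/DMSO ratio was 0.970 to 1.18 for miR-148a-5p without any single library, and for miR-148b-3p it was 0.397 without subtraction of *Control* and 0.177 with it. miR-152-3p, at 6 conversions in all, is limited by depth.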

Other observations

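The number of miR-148b-3p conversions in *Control* varied more than that of miR-148a-3p. It was 0, 12, 1 and 17 in replicates 1 to 4, over 25821, 39285, 25630 and 28005 covered T positions, whereas miR-148a-3p gave 40, 64, 52 and 62. The 17 conversions of *Control* replicate 4 equalled the 17 of *DMSO* replicate 4, over 23603 covered T positions. With 0 conversions in *PlaB* replicate 4, the corrected PlaB/DMSO ratio of that experiment was −5.36 for miR-148b-3p, against 0.493, 0.123 and 0.705 in the other experiments. For miR-148a-3p the ratios of the 4 experiments were 0.655, 0.477, 0.643 and 0.525, and for miR-148a-5p they were 1.09, 1.11, 1.15 and 0.926.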
